A study of Mus musculus with 4 samples.

Results

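The 10 genes described here, *Defb23*, *Defb20*, *Defb22*, *Defb26*, *Defb28*, *Defb29*, *Defb21*, *Defb19*, *Defb36* and *Defb25*, are the listed beta-defensins of a run on mouse chromosome 2 (GRCm38). They were taken by symbol from the count matrix, which holds 16892 genes. They lie on chromosome 2 between bases 152459055 and 152623053, a stretch of 164.0 kb, in the order given, with 4 genes on the plus strand and 6 on the minus strand. *Defb45*, which lies between *Defb19* and *Defb36*, is not in the list and is given as a neighbor. The data are single-cell counts from the sperm ducts of the mouse, the caput, corpus and cauda epididymis and the vas deferens, with 1 library each. All animals were male FVB/NJ mice of 10 to 12 weeks without treatment or engineered alleles named in the labels, and each library pooled 8 pieces of tissue from the same 4 mice. The cuts between regions were placed a little differently from piece to piece, so a library can hold cells of a neighboring region. The deposited table places the 8880 cells in 34 populations, of which 15 are principal cells, numbered along the duct (1 to 11 in the epididymis, 12 to 15 in the vas deferens).

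Beta-defensins are small, cationic, secreted peptides held together by cysteine bridges. They are known for antimicrobial activity, and in the epididymis many of them are released by principal cells, the tall secretory cells that line the duct, and attach to passing sperm. *Defb22* is known as a heavily glycosylated protein of the sperm surface coat, and *Defb23* and *Defb26* as genes whose loss together with another defensin lowers sperm motility. The principal cell changes its secretory program along the duct, which is why levels are given here by population as well as by library.

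A level below is the number of UMIs (counted molecules) of a gene per 1000000 UMIs of a group of cells, written UPM. The brackets after a level or ratio hold its exact 95% interval. Each region was 1 library, so no value has a replicate, no test between regions was possible, and the intervals cover counting error only. The libraries held 1433 to 3506 cells and 4408989 to 10744928 UMIs, and their principal cells 1418794 to 4682368 UMIs, so that the floor of 3 UMIs stands for 0.641 to 2.11 UPM. Of 8837 different cell barcodes, 43 occurred in more than 1 library. The names of the cell types held against 30 marker genes, of which 29 were highest in the type they mark. UMIs were counted on 3′ ends and are not scaled by gene length, so levels are compared mainly within a gene, and where values of 2 genes stand side by side they are shares of the UMIs counted.

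Each gene has a short transcript of 2 or 3 exons with 201 to 558 coding bases in the GENCODE annotation. *Defb23* is at chr2:152459055-152464620 on the minus strand, *Defb20* at chr2:152477063-152479934 on the plus strand, *Defb22* at chr2:152485663-152490138 on the minus strand, and *Defb26* at chr2:152507798-152511692 on the minus strand. *Defb28* is at chr2:152518255-152521447 on the plus strand, *Defb29* at chr2:152538714-152540098 on the minus strand, and *Defb21* at chr2:152572744-152574944 on the plus strand. *Defb19* is at chr2:152576086-152580312 on the minus strand, *Defb36* at chr2:152604327-152612729 on the plus strand, and *Defb25* at chr2:152622356-152623053 on the minus strand. The gaps between neighbors ran from 1141 bases, between *Defb21* and *Defb19*, to 32645 bases, between *Defb29* and *Defb21*. No stretch of 30 bases in a transcript of the 10 genes was found in a transcript of another gene. *Defb21* and *Defb19* point toward each other, and the authors counted reads up to 1000 bases past a gene's end, so the small counts of *Defb19* are uncertain. *Defb36* overlaps the noncoding gene *Gm31618* and holds the pseudogene *Gm14163*, and its counts are uncertain as well.

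The RefSeq table of promoters held 8 of the 10 genes and none of *Defb19* or *Defb25*. The 250 bases before the start are shown for 5 genes on which the results turn: *Defb20* and *Defb28*, whose levels run in opposite directions along the epididymis, *Defb22* and *Defb26*, which share their populations, and *Defb23*, the gene with matches to both motifs searched. Each is written 5′ to 3′ on the strand of its gene (GRCm38.p6), and capitals mark AGAACA, the repeat unit of steroid hormone response elements, and TATAAA, the TATA box, in either orientation.
Defb20, chr2:152476813-152477062, plus strand: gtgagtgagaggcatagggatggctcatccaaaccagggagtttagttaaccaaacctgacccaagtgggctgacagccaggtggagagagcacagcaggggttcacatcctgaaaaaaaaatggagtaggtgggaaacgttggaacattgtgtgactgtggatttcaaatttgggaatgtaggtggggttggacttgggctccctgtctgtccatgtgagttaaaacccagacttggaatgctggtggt
Defb28, chr2:152518005-152518254, plus strand: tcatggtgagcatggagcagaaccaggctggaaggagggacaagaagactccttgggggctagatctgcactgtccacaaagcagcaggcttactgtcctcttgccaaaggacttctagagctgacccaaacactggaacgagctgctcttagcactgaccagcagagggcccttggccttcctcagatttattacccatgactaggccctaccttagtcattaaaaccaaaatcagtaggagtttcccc
Defb22, chr2:152490139-152490388, minus strand: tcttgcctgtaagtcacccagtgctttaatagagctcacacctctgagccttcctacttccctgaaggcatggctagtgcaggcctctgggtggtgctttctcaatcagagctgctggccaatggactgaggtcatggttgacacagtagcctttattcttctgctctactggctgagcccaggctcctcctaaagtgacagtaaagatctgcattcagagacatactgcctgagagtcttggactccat
Defb26, chr2:152511737-152511986, minus strand: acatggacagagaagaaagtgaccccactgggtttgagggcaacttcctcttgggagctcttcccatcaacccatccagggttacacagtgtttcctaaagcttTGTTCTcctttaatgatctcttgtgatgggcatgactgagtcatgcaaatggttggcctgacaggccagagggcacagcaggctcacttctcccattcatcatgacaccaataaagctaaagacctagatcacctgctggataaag
Defb23, chr2:152464621-152464870, minus strand: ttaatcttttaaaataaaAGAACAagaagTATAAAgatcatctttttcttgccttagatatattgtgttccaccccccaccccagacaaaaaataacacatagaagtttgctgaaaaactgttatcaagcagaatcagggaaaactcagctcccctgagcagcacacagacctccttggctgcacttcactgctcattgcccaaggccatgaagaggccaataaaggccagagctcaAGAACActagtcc
In the window of *Defb23*, AGAACA starts 232 and 13 bases before the transcript start and TATAAA starts 221 bases before it. *Defb26* holds 1 match to AGAACA in the opposite orientation, TGTTCT, starting 146 bases before its RefSeq start, and *Defb36* holds 2, starting 209 and 160 bases before its start. Of the 9 windows of these genes (*Defb21* has 2 starts), 3 held AGAACA and 1 held TATAAA on either strand, against 16.1% and 12.4% of 32851 promoter windows of the same length. The motifs do not overlap each other in these windows, and a match is a match of letters, not a binding site. The windows of the 8 genes held 42.0% to 56.4% G and C and 0 to 5 CG dinucleotides, where the medians over all windows were 52.4% and 6. In pairwise global alignments of these 8 windows, 46.0% to 55.0% of positions were identical, and the pair *Defb22* and *Defb26* had 52.7%.

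The first question was along which part of the duct each gene was counted. Of the 10 genes, 6 were restricted to 1 library, meaning that its principal cells had 20 or more UMIs and a level 4 times or more above each of the other libraries. The background for this is 6.61% of 9122 genes tested. The caput had 2 of the 6, *Defb20* and *Defb25*, and the corpus 4, *Defb23*, *Defb22*, *Defb26* and *Defb36*, where the background is 2.97% for the caput and 1.46% for the corpus. The cauda and the vas deferens had none, against 0.614% and 1.57%. The median ratio of the highest to the next library was 10.3 over these genes and 1.35 over all genes tested. By highest library alone, the caput had 3 genes, the corpus 6, the cauda 1 and the vas deferens 0. Over the 9122 genes tested, the same counts were 1841, 2824, 930 and 3527. Among the 30 other beta-defensin and *Spag11* genes of the matrix, 24 were tested, 11 were restricted, and the median ratio was 3.60.

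**Figure D1:**
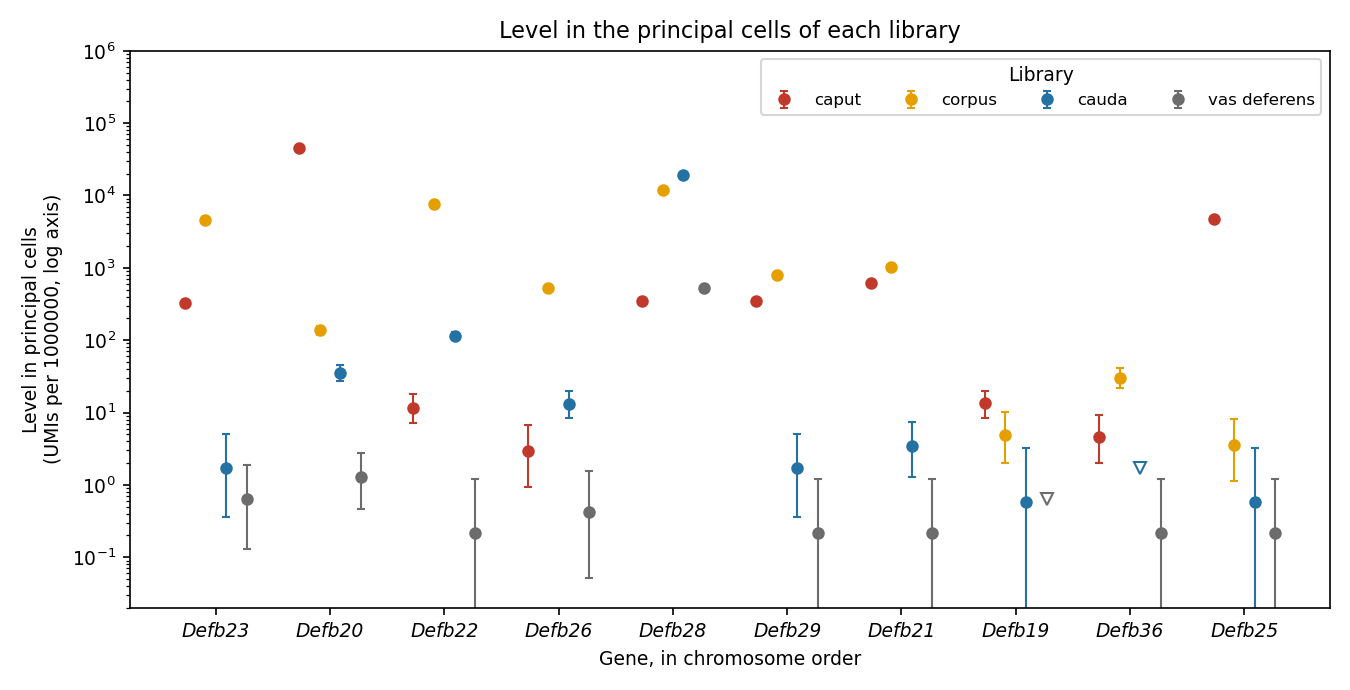
Level of the 10 genes in the principal cells of each library, in UMIs per 1000000 on a log axis, with genes in chromosome order. Points are the single libraries and bars the exact 95% Poisson intervals (counting error only), and open triangles mark the floor of 3 UMIs where a library had 0. The caput point is far above the others in Defb20 and Defb25, and the corpus point in Defb23, Defb22 and Defb26. In Defb36 the corpus point is 6.53-fold above the caput point, from 43 and 8 UMIs. Defb28 has high points in both the corpus and the cauda.

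*Defb20* was the gene of the run with the most UMIs, 81078. Its levels in caput, corpus, cauda and vas deferens principal cells were 45627, 138, 35.6 and 1.28 UPM, lower at each step with no overlap of intervals. The caput was 330-fold above the corpus (287 to 382). *Defb25*, at the other end of the run, had 4667 UPM in the caput from 8043 UMIs, and 5, 1 and 1 UMIs in the principal cells of the corpus, cauda and vas deferens. The intervals of those 3 libraries overlapped from each to the next, and the ratio of caput to corpus was 1324 (567 to 4079). *Defb20* is the second gene of the run and *Defb25* the last.

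Of the corpus genes, *Defb22* had caput, corpus, cauda and vas deferens levels of 11.6, 7585, 114 and 0.214 UPM. Its corpus level was 66.3-fold above the cauda (57.6 to 76.7). *Defb26*, the next gene along the chromosome, had 2.90, 525, 13.2 and 0.427 UPM in the same order. It was 39.7-fold higher in the corpus than in the cauda (26.3 to 63.0), and its caput and vas deferens intervals overlapped. Both genes thus stood in the same order of libraries: corpus, cauda, caput, vas deferens. *Defb23* had the caput in place of the cauda after the corpus, with 4637 UPM in the corpus, 329 in the caput, and 1.72 and 0.641 in the cauda and vas deferens, and a ratio of corpus to caput of 14.1 (12.9 to 15.4). *Defb36* also had the caput after the corpus, with 30.3 UPM in the corpus against 4.64 in the caput (6.53-fold, 3.03 to 16.1), from 43 and 8 UMIs.

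*Defb29* and *Defb21* were counted in both caput and corpus and were not restricted. *Defb29* had 352 UPM in the caput and 805 in the corpus (2.29-fold, 2.07 to 2.53), with 3 cauda UMIs and 1 vas deferens UMI. *Defb21* had 623 UPM in the caput and 1024 in the corpus (1.65-fold, 1.52 to 1.78), with 6 cauda UMIs and 1 vas deferens UMI. For both genes the corpus was above the caput by more than counting error in principal cells, and the later libraries were near the floor. Over all cells of each library the order of *Defb21* turned, with 259 UPM in the caput (244 to 275) and 231 in the corpus (219 to 243). *Defb19* had 23 caput UMIs, 7 corpus UMIs, 1 cauda UMI and 0 in the vas deferens, and the Poisson intervals of its caput and corpus levels overlapped, so its order is not settled at this depth.

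*Defb28* was the gene counted mainly late in the duct. It had 19021 UPM in the cauda, 11969 in the corpus, 524 in the vas deferens and 352 in the caput. No intervals overlapped, and the cauda was 1.59-fold above the corpus (1.56 to 1.62), which is under the threshold of 4 for a restricted gene. In the vas deferens library most of its UMIs came from cells of epididymal populations: the 151 cells placed in principal 1 to 11 gave 79.2% of the 2453 UMIs at 7053 UPM (6743 to 7374), and the 1209 cells of principal 12 to 15 gave 20.8% at 116 UPM (106 to 126). The cells of the same library that were not principal cells had 34.1 UPM (29.7 to 39.1).

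The second question was how the genes were divided among principal cell populations, which the study assigns to segments of the duct. The deposited names were matched to the study's numbers through equal numbers of cells, and the order and segments given here rest on that match. These populations were made from the same counts, so their levels are a description. At least 1 population was enriched, with 20 or more UMIs and 4 times the median level of the 34 populations, in 9 of the 9 genes that reached 20 UMIs in a population, against a background of 48.9% of 11614 genes. *Defb19* did not reach that number in a population. The highest populations of the 10 genes were 6 different ones, and all were principal cells of the epididymis. Principal 3 was among them only through *Defb19*, from 6 UMIs.

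**Figure D2:**
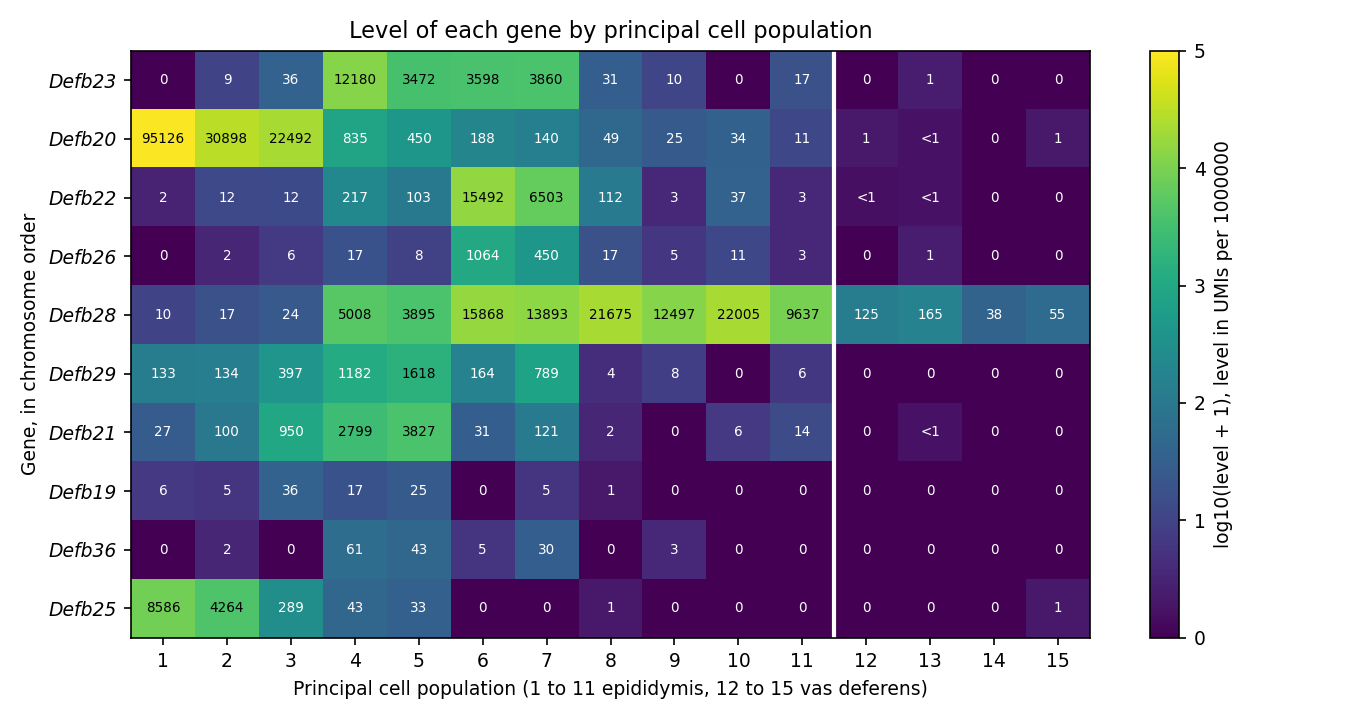
Level of each gene, in UMIs per 1000000, in the 15 principal cell populations (columns, 1 to 11 along the epididymis, then 12 to 15 of the vas deferens) with genes in chromosome order (rows). Color shows log10(level + 1) and the printed number is the level; the white line divides epididymal from vas deferens populations. The bright cells move from Defb20 and Defb25 in principal 1 to 3, through Defb23, Defb29 and Defb21 in principal 4 and 5 and Defb22 and Defb26 in principal 6 and 7, to Defb28 in principal 6 to 11.

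At the start of the duct, *Defb20* had 95126 UPM in principal 1 (segment 1), 30898 in principal 2 (segments 1 to 2) and 22493 in principal 3 (segments 3 to 4). It ranked 1 of all 16892 genes by UMIs in principal 1. In principal 4 it had 835 UPM and in principal 5 it had 450, and in principal 8 to 11 it had 11.1 to 48.6. *Defb25* had 8586 UPM in principal 1 and 4264 in principal 2, a ratio of 2.01 (1.93 to 2.11), but 289 in principal 3. The 2 genes thus parted after principal 2: from principal 2 to principal 3 *Defb20* went from 30898 to 22493 UPM and *Defb25* from 4264 to 289.

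In the middle of the duct, *Defb23* was highest in principal 4 (segment 5), at 12180 UPM (11551 to 12835), with 3860 in principal 7, 3598 in principal 6 and 3472 in principal 5. Principal 4 was 3.16-fold above the next population (2.95 to 3.37), and principal 8 had 30.8 UPM. Within principal 4, the 55 corpus cells had 14205 UPM of *Defb23* and the 19 caput cells 4116, from 1306 and 95 UMIs. *Defb29* and *Defb21* were both highest in principal 5 (segments 5 to 6), at 1618 and 3827 UPM, and next in principal 4, at 1182 and 2799. For both the ratio of principal 5 to principal 4 was 1.37 (1.14 to 1.65 and 1.21 to 1.54). With counts divided by the authors' size factors and averaged over cells, the order of the 2 populations turned, with ratios of 0.843 and 0.992. They differed in principal 7 (segment 7), where *Defb29* had 789 UPM and *Defb21* had 121.

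*Defb22* and *Defb26* began together. *Defb22* had 12.0 UPM in principal 3, 217 in principal 4, 103 in principal 5, 15492 in principal 6 and 6503 in principal 7 (both segment 7), and 112 in principal 8 (segments 8 to 9). *Defb26* had 1064 UPM in principal 6, 450 in principal 7 and 17.4 or less in every other principal population. Only principal 6 and 7 reached 10% of the highest level in either gene. Principal 6 was above principal 7 by 2.38-fold in *Defb22* (2.29 to 2.48) and by 2.36-fold in *Defb26* (2.03 to 2.75).

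*Defb28* was the broadest gene. It had 24.1 UPM in principal 3, 5008 in principal 4 and 3895 in principal 5, and 15868 in principal 6, 13893 in principal 7, 21675 in principal 8, 12497 in principal 9, 22005 in principal 10 and 9637 in principal 11. The intervals of principal 10 and principal 8 overlapped (ratio 1.02, 0.989 to 1.04), and their order depended on the scaling, with ratios of 0.862 as a mean over cells and 1.22 with size factors. In all, 8 populations reached 10% of its highest level, compared with 2 for *Defb22*, *Defb26* and *Defb25*, 3 for *Defb20* and *Defb21*, 4 for *Defb23* and 5 for *Defb29*. The vas deferens populations had 37.9 to 165 UPM. *Defb19* and *Defb36*, with 44 and 57 UMIs in all, were highest in principal 3 (36.1 UPM, 13.2 to 78.5) and principal 4 (60.9 UPM, 24.5 to 125), and their intervals overlapped those of principal 5.

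As a share of all UMIs, the 10 genes took 10.4% of principal 1 (10.3 to 10.5), 3.54% of principal 2, 2.42% of principal 3, 2.24% of principal 4 and 1.35% of principal 5. The share was higher again in principal 6, at 3.64% (3.58 to 3.70), and was 2.58% in principal 7, 2.19% in principal 8, 1.26% in principal 9, 2.21% in principal 10 and 0.969% in principal 11. It was 0.0170% or less in the 4 populations of the vas deferens. *Defb20* gave 91.6% of these UMIs in principal 1, *Defb23* 54.5% in principal 4 and *Defb28* 99.0% in principal 8, whereas in principal 5 the leading gene, *Defb28*, gave 28.9%. Over libraries, the 10 genes took 5.20% of the UMIs of caput principal cells, 2.67% for the corpus, 1.92% for the cauda and 0.0527% for the vas deferens. The caput was 1.95-fold above the corpus (1.92 to 1.97), and over all cells of each library, where cell types differ in number, it was 3.00-fold above the next. That was 36.2%, 55.2%, 48.3% and 15.1% of the UMIs of the whole family of 40 beta-defensin and *Spag11* genes.

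**Figure D3:**
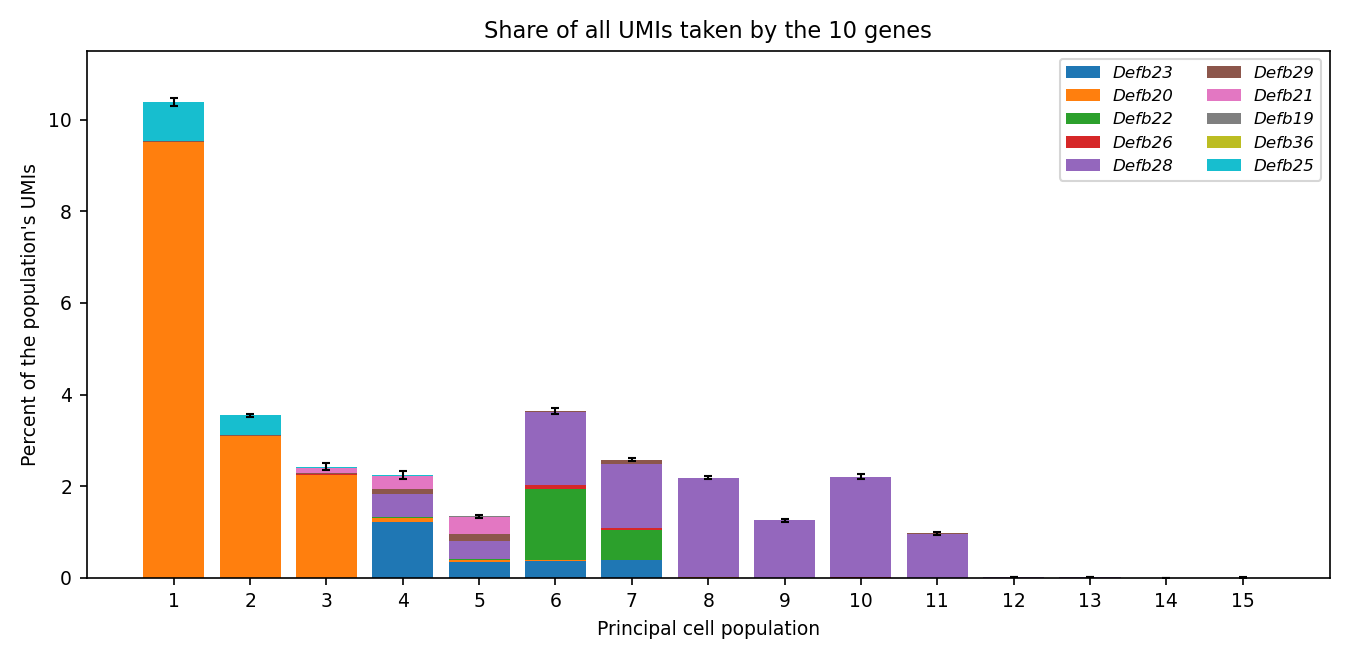
Percent of all UMIs of each principal cell population (x axis, 1 to 11 along the epididymis, 12 to 15 of the vas deferens) taken by the 10 genes, stacked by gene. Black bars are the exact 95% Poisson intervals of the sum. Defb20 fills most of the bars of principal 1 to 3 and Defb28 nearly all of principal 8 to 11, while principal 4 to 7 hold several genes.

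The division of UMIs between neighboring genes was then set side by side across populations, for pairs with at least 50 UMIs. These 2 pairs were picked after their values had been seen. *Defb22* took 93.6% of the UMIs of *Defb22* and *Defb26* in principal 6 (93.0 to 94.1, from 7049 UMIs) and 93.5% in principal 7 (92.8 to 94.2, from 4477 UMIs), so the 2 genes kept one ratio within counting error while both were lower in principal 7. In principal 5 it was 92.6% (82.1 to 97.9) and in principal 8 it was 87.0% (79.2 to 92.7). *Defb29* took 29.5% of the UMIs of *Defb29* and *Defb21* in principal 3 (23.6 to 35.9), 29.7% in principal 4 (25.5 to 34.1) and 29.7% in principal 5 (27.98 to 31.5). Outside these 3 populations the division was another one: 82.9% in principal 1 (73.0 to 90.3), 57.4% in principal 2 (50.1 to 64.4), 84.3% in principal 6 (74.7 to 91.4) and 86.7% in principal 7 (83.7 to 89.3). For this pair the low share in principal 5 held in each library, at 31.2% in its caput cells and 28.6% in its corpus cells, and in the 19 caput cells of principal 4 it was 21.5%, from 79 UMIs.

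**Figure D4:**
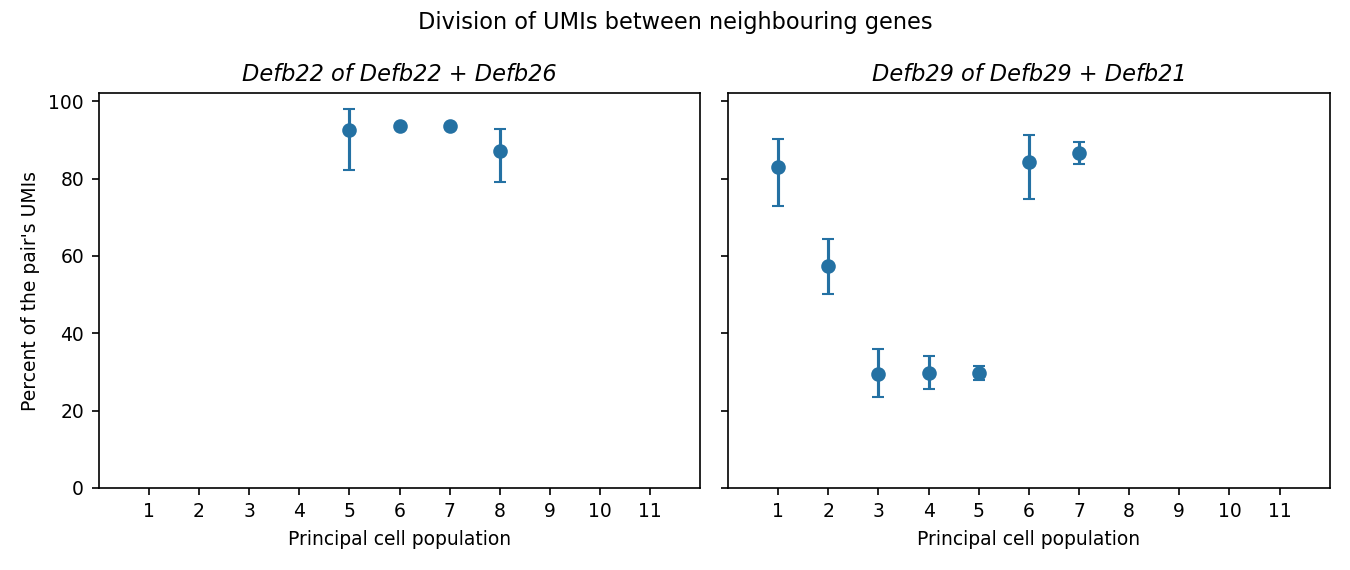
Percent of a pair's UMIs taken by its first gene in each principal cell population with at least 50 UMIs of the pair, for Defb22 with Defb26 (left) and Defb29 with Defb21 (right). Bars are Clopper-Pearson 95% intervals. The left pair sits at 93.6% and 93.5% in principal 6 and 7, and the right pair sits near 30% in principal 3 to 5 and above 50% elsewhere.

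Some populations held at least 20 cells from each of 2 libraries, which shows how far a gene followed the population or the dissection. In principal 5, the 67 caput cells and 172 corpus cells had 2543 and 4017 UPM of *Defb23*, 2956 and 4446 of *Defb28*, 1913 and 1445 of *Defb29*, and 4211 and 3601 of *Defb21*. These ratios of caput to corpus lay between 0.633 and 1.32. *Defb20* had 1166 UPM in the caput cells and 29.5 in the corpus cells of that population, a ratio of 39.5 (20.4 to 87.7), and *Defb22* had 5.58 and 161 (0.0347, 0.000862 to 0.203). Beside these values stand those of cells that are not principal cells: 469 to 1047 UPM of *Defb20* in basal, clear, stromal and endothelial cells of the caput, and 157 UPM of *Defb22* in basal cells of the corpus. The part of RNA from outside the cells in the values of principal 5 was not tested.

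Principal 8 held 22 corpus and 486 cauda cells, with medians of 416 and 688.5 UMIs per cell. The corpus cells had 6211 UPM of *Defb22* and the cauda cells 33.1, a ratio of 188 (118 to 305), and *Defb23* had 26 UMIs in the corpus cells (2410 UPM) and 0 in the cauda cells. The corpus cells of principal 7 had 6871 UPM of *Defb22* and 4141 of *Defb23*. *Defb28* differed little, with 15204 UPM in the corpus cells and 21864 in the cauda cells (ratio 0.695, 0.593 to 0.811). The *Defb22* level of principal 8 as a whole, 112 UPM, therefore rested on few cells: 67 of its 94 UMIs came from those 22. Neither the placement of those 22 cells in principal 8 nor the part of RNA from outside the cells was tested. For *Defb28*, the cauda cells of principal 9 had 14813 UPM against 7962 in the 26 vas deferens cells (1.86-fold, 1.74 to 1.99). In principal 11 the 141 cauda cells had 12037 against 4011 in 100 vas deferens cells (3.00-fold, 2.71 to 3.33).

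The caput UMIs of the later genes came from few cells. Of the 567 *Defb23* UMIs in caput principal cells, 80.4% were in the 67 cells of principal 5 and 16.8% in the 19 cells of principal 4, and principal 1 to 3 together held 14. Of the 607 *Defb28* UMIs there, 87.3% were in principal 5. For *Defb21* the share was 70.4% and for *Defb29* it was 56.5%. *Defb29* and *Defb21* were also counted in principal 1 and principal 2, *Defb29* at 133 and 134 UPM and *Defb21* at 27.4 and 99.5. In the cauda library, 96 of 199 *Defb22* UMIs came from 13 cells of principal 6 and 67 from 18 cells of principal 7.

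Whether all cells of a population held a gene was read after drawing 1000 UMIs from each cell and leaving out shallower cells. *Defb20* had a UMI in 82 of 82 cells of principal 1, with a median of 88 of the 1000 UMIs and a 10th to 90th percentile range of 55.1 to 161. Without drawing UMIs it was in 144 of 144 cells. *Defb22* had a UMI in 98.6% of 139 cells of principal 6 (94.9 to 99.8) and *Defb28* in 98.9% to 99.3% of the cells of principal 6 to 10. *Defb25* was in 93.9% of 82 cells of principal 1, *Defb23* in 36 of 40 cells of principal 4, *Defb21* in 87.6% and *Defb29* in 67.6% of 105 cells of principal 5, and *Defb26* in 43.2% of 139 cells of principal 6. With all UMIs of all cells, the shares in the same populations were 81.1% for *Defb23*, 69.04% for *Defb21*, 43.9% for *Defb29* and 34.3% for *Defb26*, and *Defb26* had 2 or more of the 1000 UMIs in 24.5%. *Defb36* and *Defb19* were in 5.00% and 2.22% of the cells of their highest populations. In immune and endothelial cells, which are not known to express these genes, the shares were 3.16% or less for each gene over all libraries, with the same 1000 UMIs drawn. Taken by library, *Defb20* was in 6 of 37 endothelial cells and 2 of 8 immune cells of the caput, and *Defb28* in 3 of 32 endothelial cells of the corpus.

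For several genes fewer cells held a UMI than the same number of UMIs spread evenly over the cells would give. In principal 6, *Defb23* was in 52.5% of cells (43.9 to 61.0) against 96.4% for an even spread, and in principal 7 in 63.9% (54.6 to 72.5) against 99.0%. Its median in principal 7 was 2 UMIs and its highest cell had 53. *Defb22* in principal 7 was in 77.3% (68.7 to 84.5), where an even spread would give nearly all cells. *Defb25* in principal 2 was in 65.5% (57.8 to 72.6) against 98.0%. *Defb28* in principal 11 was in 83.9% (74.8 to 90.7), again where an even spread would give nearly all. *Defb20* in principal 2 and *Defb28* in principal 6 to 10 lay within 2 percentage points of the even spread, which was at its upper limit there. In principal 4 *Defb21* was in 92.5% of cells against 92.6%, and *Defb29* in principal 1 in 15.9% against 16.7%. Cells without a UMI of *Defb22* made up 27 of 119 cells in principal 7 and 2 of 139 in principal 6. All 33 cells with *Defb26* in principal 7 also had *Defb22*, which made 27.7% of cells with both where independent genes would give 21.4%. In principal 6, where nearly every cell had *Defb22*, 43.2% had both and independent genes would give 42.5%.

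**Figure D5:**
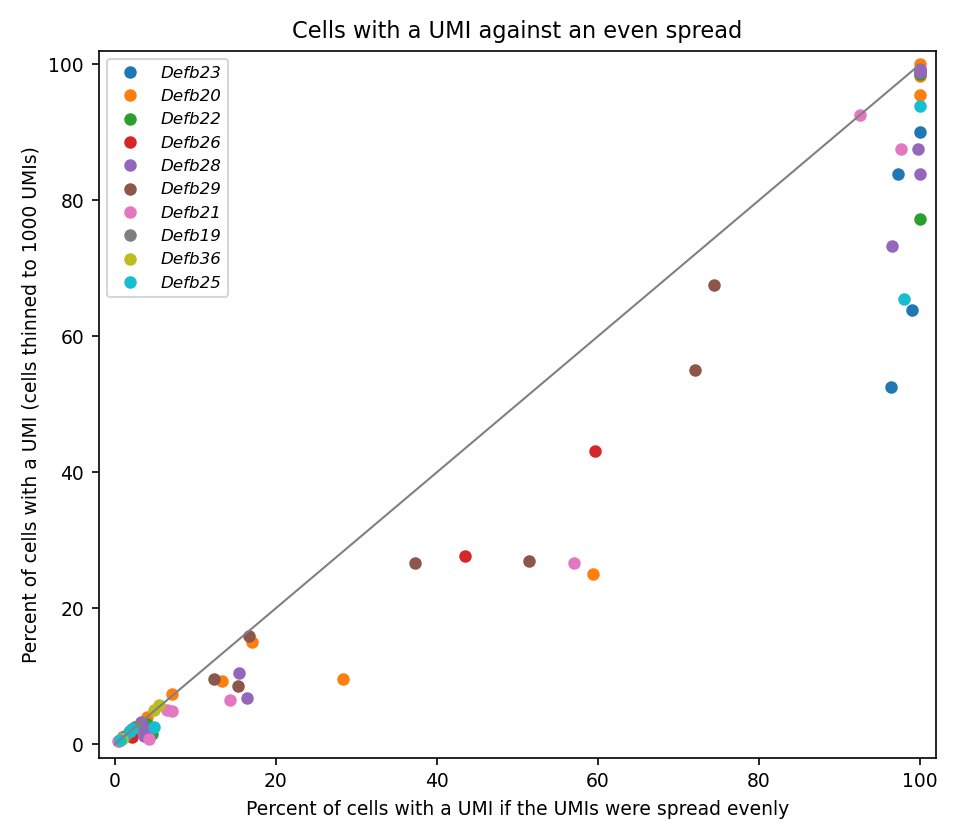
Percent of cells with a UMI after drawing 1000 UMIs per cell (y axis) against the percent that the same UMIs spread evenly would give (x axis), for each gene in each principal cell population with at least 20 such cells. The grey line marks equality. Defb23 at 52.5% and 63.9%, Defb25 at 65.5% and Defb22 at 77.3% lie far below it at the right edge.

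A single cell of the middle of the duct held several genes of the run at once. The median number of the 10 genes with a UMI per cell, at 1000 UMIs, was 4 in principal 4 and 5, 3 in principal 6 and 7, 2 in principal 1 and 2, 1 in principal 3 and in principal 8 to 11, and 0 in the vas deferens populations. In principal 4, 82.5% of 40 cells had 3 or more of the genes, and in principal 8, 0.526% of 190 cells did. The highest number in a cell was 6, in principal 6 and 7. In principal 5, 71 of 105 cells (67.6%) had both *Defb23* and *Defb28*, where independent genes would give 61.5%. Both *Defb29* and *Defb21* were in 64 of these cells (61.0%), where independent genes would give 59.2%. Cells left out for depth numbered 34 of 74 in principal 4, 134 of 239 in principal 5, 202 of 341 in principal 6 and 246 of 365 in principal 7.

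Principal cells held 96.6% of the 169154 UMIs of the 10 genes (96.5 to 96.7), and 91.2% to 97.8% for each gene but *Defb19*, which had 70.5% (54.8 to 83.2). In the other cells of the caput, the level of *Defb20* was 1047 UPM in basal, 549 in clear, 469 in stromal and 607 in endothelial cells, or 1.03% to 2.30% of its level in principal cells of that library. The UMIs of *Defb20* in these types were in few cells: 74 of 304 basal, 12 of 73 clear, 35 of 259 stromal and 7 of 50 endothelial cells. *Defb25* had 62.4 UPM in caput basal cells, which is 1.34% of its level in caput principal cells. In the corpus, *Defb22* and *Defb28* had 157 and 259 UPM in basal cells, which is 2.08% and 2.16%. The mix of genes in these cells differed between some cell types. *Defb20* made up 89.1% of the 10 genes' UMIs in caput basal cells (87.5 to 90.6). That interval held the 87.8% of caput principal cells, while caput stromal cells had 73.8% (69.9 to 77.5). *Defb28* made up 51.1% in corpus basal cells (48.3 to 53.9) and 44.8% in corpus principal cells, and *Defb23* 10.1% (8.47 to 11.9) and 17.4%. Over all cells but principal cells, *Defb28* had 240 UPM in the corpus (226 to 253) and 196 in the cauda (181 to 212). The corpus was thus higher, the opposite of the order in principal cells, but cell types differ in number between the libraries. Within clear cells the corpus was also higher, at 452 UPM (393 to 517) against 311 (267 to 360). In basal cells the intervals overlapped, with 259 UPM (239 to 280) and 232 (203 to 265). They also overlapped in stromal cells, with 180 (162 to 200) and 159 (137 to 183), and in endothelial, immune and muscle cells. The low-UMI basal population had 1501 UPM of *Defb20*, against 184 in the main basal population. Without called doublets, principal cells held 97.1% of the 10 genes' UMIs. Whether the UMIs of the other cell types come from RNA outside the cells was not tested.

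The genes whose pattern over the 34 populations was most like that of each gene are given by Pearson's r of log2(level + 10 UPM), as a description. Populations share libraries and depth, so they are not independent points. *Defb25* was most like *Cst11* (r = 0.989) and *Cst8* (0.987), which encode cystatins of the epididymis, and the defensin *Defb47* (0.984). *Defb20* was most like *Gpx5* (0.935), a secreted glutathione peroxidase of the caput, followed by *Cst11* (0.929) and *Defb47* (0.927). *Defb20* and *Defb25* thus shared 2 of their 3 most similar genes, and neither was among the other's 3.

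*Defb22* and *Defb26* were both most like *Cyp17a1* (r = 0.896 and 0.964), an enzyme of androgen synthesis, which had 322 UPM in principal 6. *Defb26* was among the 3 genes most like *Defb22* (0.885), and *Myom2* and *Gp9* followed for *Defb26* (0.949 and 0.945). *Defb29* was most like *Kcnh3* (0.970), a potassium channel, and then *Defb21* (0.923), and *Defb21* was most like *Gc* (0.963), the vitamin D-binding protein. *Defb23* was most like *Otof* (0.912), *Defb36* like *Agt* (0.897), the angiotensin precursor, with *Defb23* also among its 3 (0.859), and *Defb28* like the calcium pump gene *Atp2b3* (0.912), *Defb10* (0.912) and *Defb11* (0.911). Over the 11 epididymal principal populations alone, r was 0.967 for *Defb22* with *Defb26*, 0.950 for *Defb20* with *Defb25*, 0.889 for *Defb29* with *Defb21* and -0.956 for *Defb20* with *Defb28*. Over all 34 populations r was -0.0808 for that last pair.

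The genes beside and within the run were read in the same way. *Defb45*, between *Defb19* and *Defb36*, had 4001 UPM in caput principal cells and 1, 0 and 0 UMIs in the others, and was highest in principal 2 at 5350 UPM. *Rem1*, a small GTPase gene just past *Defb25*, had 39.5 UPM in the caput and 0 UMIs in the principal cells of every other library. Caput principal cells held 68 of the 277 *Rem1* UMIs, and the others were in cells that are not principal cells. *H13*, a signal peptide peptidase gene farther on, had 93.1 to 128 UPM in all 4 libraries. On the other side, *Zcchc3* and *6820408C15Rik* had fewer than 20 UMIs in the principal cells of each library. Of the 8 neighbors read, 5 were tested and 2, *Defb45* and *Rem1*, were restricted, both to the caput.

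Other antimicrobial genes of the duct were counted by the same rule, which reads principal cells only. Of 10 listed, 8 were in the matrix, 5 were tested and 3 were restricted: *Lcn2*, a siderophore-binding lipocalin, and *Bpi*, a protein that binds bacterial lipopolysaccharide, to the caput (5695 and 191 UPM), and *Ltf*, lactoferrin, to the cauda (2088 UPM). *Lcn2* was highest outside principal cells, in the low-UMI basal population (10481 UPM), and caput principal cells held 9816 of its 33047 UMIs. Of 10 listed regulators, 9 were in the matrix and tested, and 3 were restricted. *Etv4* and *Etv5*, which encode factors of the initial segment, had 22.05 and 74.8 UPM in the caput with 1 UMI each in the corpus. The next library of *Etv5* was the vas deferens, at 9.61 UPM from 45 UMIs. Caput principal cells held 38 of the 153 *Etv4* UMIs and 129 of the 323 *Etv5* UMIs. *Elf5* had 40.6 UPM in the vas deferens and 8.05 in the cauda.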

How the data were processed

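The members and gene lists were chosen with earlier results of these data known. The deposited counts are whole UMIs per gene and cell. The authors aligned the reads with HISAT2 2.0.4 to mm10 (the assembly GRCm38), per the submitters' processing notes and the study's methods, counted UMIs on RefSeq genes with ESAT, extending genes past their 3′ ends, kept barcodes within limits of total UMIs, and removed an estimate of ambient RNA with a modified SoupX. In the deposited table of cells, 3.54% of UMIs had been removed this way. The authors' size factor of each cell, a score with no unit, was used in an alternative only. Their cell populations were used without re-clustering.

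For each group of cells, the summed UMIs of a gene were divided by the total UMIs of those cells. Intervals are exact Poisson (levels), exact conditional (ratios) and Clopper-Pearson (shares), at 95%, and cover counting error, not animals or dissections. A gene needed 20 UMIs to be tested, and libraries below 3 UMIs were raised to that floor in ratios. Shares of cells were read after a seeded draw of 1000 UMIs per cell. Doublets were called from simulated doublets (178 of 8880 cells, 2.00%) and kept in the values reported. The calls of restricted and enriched genes were tested on simulated data. The genes named are the 10 members, the 3 genes most like each member among those with at least 20 UMIs in a population, annotated neighbors, and fixed lists of antimicrobial genes and regulators. *Bpifa1*, *Bpifb1* and *Hnf4a* have no row in the matrix used. Proteins and bulk RNA were not analysed here. The values of a listed regulator are not reported here. The tools were scipy 1.17.1, scikit-learn 1.9.0, Biopython 1.88, pandas 2.3.3, numpy 2.4.6 and matplotlib 3.10.9 under Python 3.11.15. Locations are from GENCODE and promoters from RefSeq annotations of GRCm38.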

Additional observations from a re-analysis of the deposited data

How the results depend on the processing

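The count of restricted genes was 6 and ranged from 5 to 8 over 12 alternatives, and that of genes enriched in a population was 9 and ranged from 8 to 10 over 9. The shares over all genes, 6.61% and 48.9%, were counted at the main settings only. The counts under the alternatives therefore have no background beside them. The share of the genes' UMIs in principal cells, 96.6%, was 97.1% without called doublets, 96.7% as a mean over cells of UMIs per 1000000 and 97.8% with counts divided by size factors. The summed level of the caput against the next library, 1.95, was 2.05 in cells with at least 1000 UMIs, 1.92 without called doublets, 1.52 as a mean over cells, 1.89 with size factors, 2.01 without the 20 genes with the most UMIs in principal cells (*Defb20* and *Defb28* among them) in the denominator, and 3.00 over all cells of each library. With size factors, principal 5 stood below principal 4 in *Defb29* (ratio 0.843) and *Defb21* (0.992), and the highest population stood against the next at 6.56 in place of 1.40 for *Defb36*, 4.82 in place of 3.08 for *Defb20* and 0.838 in place of 1.46 for *Defb19*. The cause was not tested. The genes had 6 different highest populations, 4 with size factors and 5 as a mean over cells. Over all cells of each library, the caput led in 4 genes and the corpus in 5, in place of 3 and 6. With fewer UMIs drawn per cell, *Defb29* was in 40.5% of principal 5 cells in place of 67.6%. The division of UMIs in the 2 neighboring pairs was read again, as alternatives added after seeing the data, in deeper cells, without called doublets and within libraries, and left its counting interval only in the caput cells of principal 4. No paired analysis was possible because each region was 1 library with no replicate. Depth limits *Defb19* and *Defb36*, with 44 and 57 UMIs, and every level under 0.641 to 2.11 UPM in the principal cells of a library. In single populations the limit is higher. The 17.4 UPM of *Defb26* in principal 4 and the 12.0 UPM of *Defb22* in principal 3 are 2 UMIs each.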

Other observations

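The rest of the beta-defensin family gives a wider view of the same cells. Of the 24 other beta-defensin and *Spag11* genes tested, the caput was the highest library of 10, the cauda of 8, the corpus of 6 and the vas deferens of 0. Among all 9122 genes tested, the caput was highest in 1841, the cauda in 930, the corpus in 2824 and the vas deferens in 3527. In the cauda, *Defb28* was the main gene of the run at 19021 UPM. Among the other genes there, *Defb2* had 9590 UPM, *Defb43* 2965, *Defb11* 2612, *Defb40* 2013 and *Defb9* 1619. Of these, *Defb2*, *Defb11* and *Defb9* were restricted to the cauda, at 5.38 to 18.1 times the next library. In the vas deferens, *Defb43* had 1282 UPM, *Defb42* 767 and *Defb28* 524. These genes were picked for naming after their values had been seen, and no test was made.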
